A study of Mus musculus with 27 samples.

Results

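The nuclear genes of oxidative phosphorylation were taken as the rows of the count table whose symbol begins with Nduf followed by a, b, c, s or v, is Sdha, Sdhb, Sdhc or Sdhd, or begins with Uqcr, Cox4 to Cox8 or Atp5, without symbols that mark a pseudogene. The rule uses names only and no measured value. It gave 92 of the 24062 genes of the table. They were described in 27 mouse libraries of bulk RNA sequencing, 3 in each of 9 groups.

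All animals and cells were of strain C57BL/6. Mouse embryonic fibroblasts, primary cells grown from embryos, were labelled KO-NTD, KO and WT in experiment 1 and Het-NTD, WT-NTD, Het and WT in experiment 2. They were of early passage and were taken at about 90% confluence while dividing asynchronously, per the labels. Whole lungs came from animals 10 days old and were labelled Het or WT. The series concerns Foxm1, a transcription factor of the cell cycle, and Het and KO are taken as heterozygous and knockout states as the labels write them. The labels name no promoter, Cre driver or altered exon, and they leave NTD unexplained. They do not say whether the 3 libraries of a group came from separate embryos, animals or cultures, and p-values therefore speak of the spread among libraries alone.

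Oxidative phosphorylation passes electrons from NADH and succinate through complexes I and II to ubiquinone, then through complex III and cytochrome c to complex IV, which reduces oxygen. Complexes I, III and IV pump protons out of the mitochondrial matrix, and complex V, the ATP synthase, uses the gradient to make ATP. Most subunits are encoded in the nucleus and imported, and a few subunits of complex IV have paired genes of which 1 copy is known mainly from lung, muscle, testis or cells short of oxygen.

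By role, the rule gave 7 core subunits of complex I, 29 supernumerary subunits of complex I, 7 assembly factors of complex I, 4 subunits of complex II and 8 of complex III. Complex IV had 11 general subunits and 8 genes of tissue-restricted or inducible isoforms. Complex V had 15, and Cox7a2l, described as a factor of supercomplexes of III and IV, stood alone. Whether its protein acts so in this strain was not tested. Atp5s and Atp5sl fit the rule by name but encode no subunit. Ndufa4 was placed in complex IV, where its protein is now assigned. The 92 genes lie on 19 chromosomes. The 13 mitochondrially encoded subunits were not analysed here.

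The table limited some members. Cox7b2, Cox8c and Ndufs5 were below the count filter in every fit, and Cox8b was below it in both fibroblast experiments. Ndufs5, a supernumerary subunit of complex I on chromosome 4 from 123712710 to 123718202 (GRCm38, minus strand), had at most 1 count in any library. A processed copy of it that is in the table, BC002163, aligned to 46.9% of its transcript at 99.4% identity and had 9.3, 7.7 and 0.2 CPM (read counts scaled to library size) in WT-NTD. The level of Ndufs5 itself is therefore uncertain. In all, 26 members had a copy of at least 100 bases at 95% identity or more elsewhere in the genome, and in Atp5f1, Atp5h, Atp5k, Atp5l, Ndufs3 and Uqcrb such copies covered over 50% of the transcript. Exons of 23 members overlapped those of another gene in the table. The overlap was 30% of exon length for Ndufa13 with Tssk6, and 54.2% for the annotation entry matched to Atp5o, with Donson. That entry spans 91684398 to 91926982 on chromosome 16 and does not reach the RefSeq promoter of Atp5o (91931581 to 91931880). The overlap with Donson may therefore not be that of Atp5o itself. The values of both members are uncertain. Strand was not recorded by the kit.

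Promoter sequences, from 250 bases before to 50 bases after the start of the gene, were found in RefSeq (GRCm38.p6) for 76 of the 92 members. Shown are the windows of Ndufv3, Sdhd and Ndufa4, which passed the genotype test in experiment 2, and of Uqcrc1, which had the lowest p-value among members lower in lung than in fibroblasts. Each is printed 5′ to 3′ on the strand of its gene, with motif letters in capitals.
Ndufv3: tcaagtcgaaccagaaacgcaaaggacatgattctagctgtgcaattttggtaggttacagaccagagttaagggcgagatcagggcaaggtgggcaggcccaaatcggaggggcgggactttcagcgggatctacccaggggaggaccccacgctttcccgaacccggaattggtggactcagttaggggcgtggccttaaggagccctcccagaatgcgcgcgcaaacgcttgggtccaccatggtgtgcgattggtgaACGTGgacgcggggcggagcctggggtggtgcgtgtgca
Sdhd: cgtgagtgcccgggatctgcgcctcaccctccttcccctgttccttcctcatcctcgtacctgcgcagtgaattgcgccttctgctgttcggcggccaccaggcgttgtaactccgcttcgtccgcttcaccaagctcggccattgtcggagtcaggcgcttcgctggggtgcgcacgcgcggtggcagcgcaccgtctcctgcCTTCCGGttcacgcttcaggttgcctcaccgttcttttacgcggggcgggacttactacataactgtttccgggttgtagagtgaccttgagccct
Ndufa4: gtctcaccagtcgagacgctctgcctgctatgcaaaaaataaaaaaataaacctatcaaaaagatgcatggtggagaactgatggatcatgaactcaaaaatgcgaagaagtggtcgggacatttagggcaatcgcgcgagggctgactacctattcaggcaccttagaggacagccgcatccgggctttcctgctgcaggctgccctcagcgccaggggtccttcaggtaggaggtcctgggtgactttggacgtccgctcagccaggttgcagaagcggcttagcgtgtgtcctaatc
Uqcrc1: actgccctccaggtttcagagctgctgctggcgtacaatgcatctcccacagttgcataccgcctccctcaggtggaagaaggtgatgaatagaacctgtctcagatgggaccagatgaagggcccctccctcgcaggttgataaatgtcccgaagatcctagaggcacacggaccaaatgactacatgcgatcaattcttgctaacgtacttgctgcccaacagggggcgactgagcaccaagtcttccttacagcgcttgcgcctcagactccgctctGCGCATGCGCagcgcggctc
The windows are chr17:31519865-31520164 (plus strand) for Ndufv3, chr9:50603800-50604099 (minus) for Sdhd, chr6:11907401-11907700 (minus) for Ndufa4 and chr9:108936398-108936697 (plus) for Uqcrc1. The capitals mark ACGTG, the core of the hypoxia response element, at 11 bases from the start in Ndufv3. They mark an ETS core, CCGGAAG read on the other strand, at -46 bases in Sdhd, and the motif CGCATGCGC of nuclear respiratory factor 1 (NRF1) in Uqcrc1, read on both strands from 30 and 31 bases so that the capitals run over both matches. The Ndufa4 window held none of the motifs searched. Ndufa4l2 and Cox4i2 were among the members for which no window was found, so neither could be searched for the motifs.

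Both strands were searched for 4 motifs. The NRF1 motif stood in 10 of 76 members (13.2%), against 1.95% of the 27025 genes with a window. The ETS core stood in 17 members (22.4%), against 9.93% of all genes, and the YY1 motif AAGATGGCG in 8 members (11%), against 1.64%. The hypoxia core ACGTG, which also lies inside the E-box CACGTG, stood in 20 members (26.3%), against 21.8% of all genes. Member windows were richer in G and C (median 58.0%, against 52.7% for all windows) and in CG pairs (median 20, against 7). These are matches of letters and show no binding.

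The labels and libraries were checked first. Foxm1 had 139, 149 and 152 CPM in the libraries labelled KO, against 134, 140 and 136 CPM in WT, and so was not lower in KO (log2 fold change 0.10, edgeR adjusted p = 0.565). It had 126, 131 and 130 CPM in the libraries labelled Het and 145, 147 and 149 CPM in WT of experiment 2 (log2 fold change -0.18, edgeR adjusted p = 0.249). In lung it had 17.2 to 20.2 CPM in Het and 18.3 to 20.4 CPM in WT. Directions below are therefore drawn from libraries as labelled. Depth was 29730693 to 69517834 counts per library. Fibroblast marker genes were all detected in every fibroblast library, and endothelial marker sums were 2561 to 3249 CPM in lung and 3.30 to 13.1 CPM in fibroblasts. Xist, which marks cells with 2 X chromosomes, was 159 to 808 CPM in 13 libraries and at most 3.23 CPM in the other 14. All 3 Het-NTD libraries were of the low kind, while Het, WT and WT-NTD of experiment 2 each held 2 high libraries and 1 low. The part of sex in the Het-NTD comparisons was not tested. The X-linked members Cox7b, Ndufa1 and Ndufb11 passed no fibroblast genotype test.

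Together the 88 members past the count filter summed to 6351 to 6548 CPM over the 9 libraries of experiment 1, or 0.635 to 0.655% of CPM, and to 7725 to 8210 CPM in experiment 2. The 4 subunits of complex II summed to 475 to 485 CPM in Het and 483 to 526 CPM in WT of experiment 2, and the 15 of complex V to 3496 to 3519 CPM in Het and 3502 to 3739 CPM in WT. In lung the total over 89 members varied more, with 11362, 10684 and 7441 CPM in Het and 8298, 9817 and 9697 CPM in WT. The spread between replicates was larger in lung than in culture. Among members of at least 10 CPM, the median coefficient of variation was 30.0% in lung Het and 11.9% in lung WT, against 2.77 to 4.14% across the 7 fibroblast groups.

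Levels per length of transcript (CPM per kb) differed widely between complexes. In WT lung the median was 239 for the general subunits of complex IV, 219 for complex V and 136 for complex III. Its highest member of complex V was Atp5g3 (354), 1 of 3 genes for the same c subunit of the proton ring, and its highest of complex IV was Cox8a (406). The tissue isoforms of complex IV had a median of 13.6 CPM per kb in lung, led by Cox4i2 at 124.

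WT fibroblasts of experiment 2 also ran complexes IV, V and III in that order. The median was 146 for the general subunits of complex IV and 135 for complex V. It was 102 for complex III, 78.0 for complex II, 47.4 for supernumerary and 47.0 for core subunits of complex I, 6.23 for assembly factors and 0.968 for the tissue isoforms of complex IV. The highest member was Atp5b, the catalytic beta subunit of the ATP synthase, at 662 CPM per kb, and the lowest in complex V was Atp5g1 at 23.9. That rank rests on an annotated length of 4715 bases for Atp5g1, against 731 for Atp5g2 and 723 for Atp5g3. The transcript present was not measured, so ranks per length depend on the annotation. Ndufs1 was the lowest core subunit of complex I (30.5). Complex II ran between Sdhd (80.9) and Sdhc (29.8), and complex III between Uqcrh (144) and Uqcrq (49.0). WT fibroblasts of experiment 1, scaled in their own fit, kept complexes IV and V highest (medians 123 and 107) and assembly factors low (6.35).

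**Figure D1:**
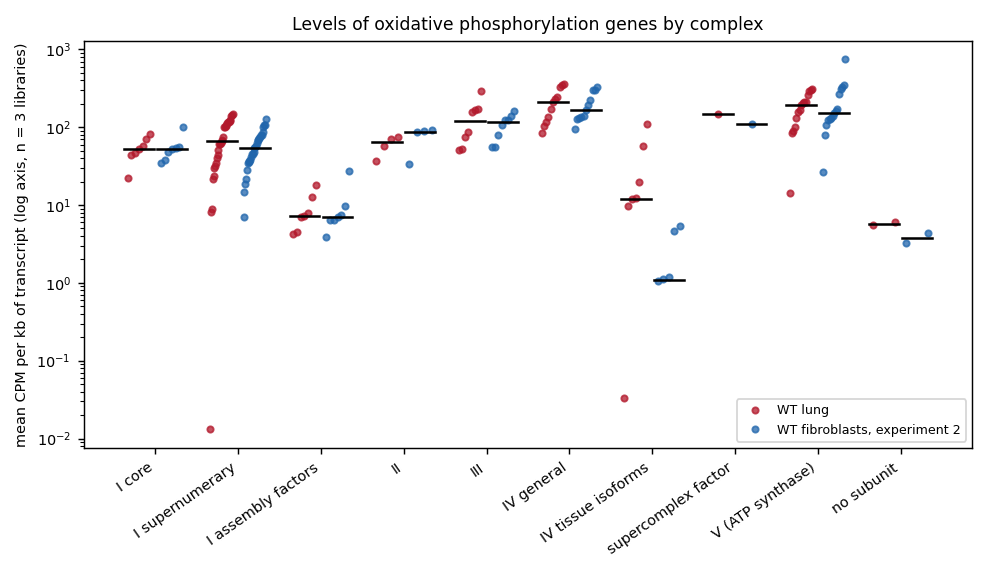
Mean level of each gene in CPM per kb of transcript (log axis, n = 3 libraries) in WT lung and in WT fibroblasts of experiment 2, scaled together in 1 fit, by complex; black bars are medians over the genes of a role, and genes at 0 are not drawn. The tissue isoforms of complex IV stand apart between the tissues, with medians of 12.1 in lung and 1.09 in fibroblasts, while the core subunits of complex I have medians of 52.8 and 53.1.

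KO against WT in experiment 1 called few genes of any kind and showed small differences in most members. None of the 88 members tested passed edgeR's quasi-likelihood test (Benjamini-Hochberg adjusted p under 0.05), and none passed DESeq2, against 0.447% of the 14551 genes in edgeR and 3.43% of all genes in DESeq2. At an unadjusted p under 0.05 there were 4. The median log2 fold change was 0.01, with 50 members above 0, and for 76 of 88 the 95% interval of the ratio lay within 1.25-fold either way. Counts of such intervals, here and below, stand without the share of all genes. No trait particular to the pathway is drawn from them. CPM of the groups did not overlap for 13 of the 88 members, against 17.3% of all genes.

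In KO against WT all members of complex V (15), complex III (8), complex II (4) and the core of complex I (7) had intervals within 1.25-fold. In complex V the log2 fold changes ran between -0.09 for Atp5f1, of the peripheral stalk, and 0.02 for Atp5e, the epsilon subunit. Atp5b had 1114, 1012 and 1032 CPM in the libraries labelled KO and 1076, 1096 and 1091 CPM in WT, with 1 KO library above all of WT. Core subunits of complex I ran between -0.08 for Ndufs1 and 0.08 for Ndufs7, complex II between -0.06 for Sdhc and 0.05 for Sdha, complex III between -0.09 for Uqcrc2 and 0.04 for Uqcrq, and general subunits of complex IV between -0.06 for Cox5a and 0.12 for Cox6a1. Supernumerary subunits of complex I reached -0.19 for Ndufa6 and 0.21 for Ndufv3. The assembly factors reached -0.09 for Ndufaf5 and 0.23 for Ndufaf2.

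The members with an unadjusted p under 0.05 were Ndufaf2, Cox6a1, Ndufa4l2 and Ndufv3. Counts at this cut-off, here and below, are not corrected for the number of tests. They stand without the share of all genes and are not read as results about the members. Cox6a1, the general form of complex IV subunit 6A, had 119, 113 and 120 CPM in KO and 109, 106 and 110 CPM in WT (edgeR adjusted p = 0.306). Its groups did not overlap. Ndufa4l2, a paralogue of Ndufa4 known as a target of hypoxia-inducible factor, had 10.8, 3.07 and 3.27 CPM in KO and 2.2, 1.08 and 1.93 CPM in WT. All KO values lay above all WT values and 1 KO library lay far above the other KO libraries. The log2 fold change was 1.71 ± 0.63 (SE, edgeR adjusted p = 0.334), and 0.87 without that library.

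KO-NTD against KO gave no member past edgeR or DESeq2, against 0.00687% of all genes past edgeR and 0.186% past DESeq2. At an unadjusted p under 0.05 there was 1 member. That member was Cox5a, with 87.8, 91.9 and 81.4 CPM in KO-NTD and 83.2, 72.1 and 72.4 CPM in KO (edgeR adjusted p = 0.714), values that overlap. Log2 fold changes over all 88 lay between -0.47 for Cox4i2 and 0.62 for Cox6a2, both under 2 CPM. Groups did not overlap for 6 members, against 11.2% of all genes. KO-NTD against WT gave none in edgeR (0.44% of all genes), 6 at an unadjusted p under 0.05 and 1 in DESeq2 (2.76% of all genes). Groups did not overlap for 14 members, against 21.4% of all genes. The member DESeq2 called was Cox6a1 (119, 122 and 118 CPM in KO-NTD and 109, 106 and 110 CPM in WT, DESeq2 adjusted p = 0.035, edgeR adjusted p = 0.227). Both KO-NTD and KO libraries held Cox6a1 above WT, but the 2 comparisons share the WT libraries.

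Het against WT in experiment 2 is the fibroblast comparison with the most called genes, 16.5% of 14314. Of the 88 members, 4 passed (4.55%), 2 higher and 2 lower, against 7.89% of all genes higher and 8.61% lower. Each of these 4 belongs to a different complex or role. DESeq2 called 4 higher and 3 lower (20.2% of all genes), and 13 members had an unadjusted p under 0.05 in edgeR. Intervals lay within 1.25-fold for 72 of 88 members and within 1.5-fold for 82, with a median log2 fold change of -0.01. Groups did not overlap for 21 of the 88 members, against 33.9% of all genes.

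Ndufv3, a supernumerary subunit of the NADH-binding module of complex I, was the member with the lowest p-value. Its position is chr17:31520115-31531331 on the plus strand of GRCm38. It had 37.8, 35.6 and 36.7 CPM in the libraries labelled Het and 31.4, 30.8 and 29.0 CPM in WT. Every Het value was above every WT value. It rose by 0.27 ± 0.06 on the log2 scale (SE, edgeR adjusted p = 0.0108), a ratio of 1.21 with a 95% interval of 1.10 to 1.32. The same direction was seen in the NTD libraries, with 39.7, 40.7 and 37.7 CPM in Het-NTD and 33.7, 31.7 and 28.9 CPM in WT-NTD, again without overlap (log2 fold change 0.32 ± 0.06 SE, edgeR adjusted p = 0.0052). Without any 1 library it still passed in both comparisons, with an edgeR adjusted p of at most 0.0404 in Het against WT and at most 0.0286 in Het-NTD against WT-NTD. In experiment 1 it had 27.0, 28.4 and 25.3 CPM in KO-NTD, 28.4, 24.9 and 27.8 CPM in KO and 23.7, 21.3 and 25.2 CPM in WT, which overlap in KO against WT (log2 fold change 0.21, edgeR adjusted p = 0.362). No other supernumerary subunit of complex I passed, and their lowest log2 fold change was -0.15 for Ndufa5.

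Sdhd, a membrane anchor of complex II, was lower in Het. The gene lies on chromosome 9 from 50596357 to 50603812 (minus strand). It had 90.9, 88.0 and 85.4 CPM in Het and 92.9, 99.1 and 107 CPM in WT, close to each other but without overlap. It fell by 0.18 ± 0.05 on the log2 scale (SE, edgeR adjusted p = 0.0251, ratio 0.885, 95% interval 0.824 to 0.951). In the NTD libraries it had 85.2, 85.5 and 85.7 CPM in Het-NTD and 95.5, 96.8 and 96.4 CPM in WT-NTD, with a gap far wider than the spread within either group. That difference was -0.17 ± 0.05 on the log2 scale (SE, edgeR adjusted p = 0.0368). The call in Het against WT held when Het 1 or WT 1 was left out and was lost without each of the other 4 libraries (edgeR adjusted p up to 0.0908). In Het-NTD against WT-NTD it was lost without any 1 library (edgeR adjusted p 0.0515 to 0.113). The catalytic flavoprotein Sdha had 205, 211 and 197 CPM in Het and 212, 221 and 229 CPM in WT and missed the threshold in edgeR (log2 fold change -0.11, edgeR adjusted p = 0.0766), while DESeq2 called it lower. Sdhc, the other anchor, was at 0.03. Experiment 1 gave Sdhd 84.7, 80.7 and 82.2 CPM in KO and 79.3, 85.5 and 77.1 CPM in WT, which overlap.

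Ndufa4 and Ndufa4l2 are paralogues and passed in opposite directions. Ndufa4, the general form (chromosome 6 from 11900292 to 11907497, minus strand), had 94.8, 90.5 and 94.3 CPM in Het and 100, 103 and 106 CPM in WT. The groups did not overlap, and it fell by 0.15 ± 0.04 on the log2 scale (SE, edgeR adjusted p = 0.0432, ratio 0.904). The call held only without WT 1 among the 6 libraries left out in turn (edgeR adjusted p 0.0381 to 0.142). In Het-NTD it had 95.4, 99.2 and 89.4 CPM, against 101, 103 and 98.2 CPM in WT-NTD, and did not pass (log2 fold change -0.09, edgeR adjusted p = 0.261).

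Ndufa4l2, the inducible form (chromosome 10 from 127514967 to 127517154, plus strand), had the largest fold change of any member called in fibroblasts. It had 13.3, 10.7 and 10.2 CPM in Het and 7.29, 3.93 and 2.25 CPM in WT, without overlap. It rose by 1.34 ± 0.35 on the log2 scale (SE, edgeR adjusted p = 0.029, ratio 2.53, 95% interval 1.47 to 4.38). Without a library the call held only when WT 1 or WT 3 was left out (edgeR adjusted p 0.00217 to 0.101). In the NTD libraries the gap was wider, with 21.1, 17.7 and 15.5 CPM in Het-NTD and 2.38, 4.48 and 3.17 CPM in WT-NTD. There it rose by 2.42 ± 0.37 (SE, edgeR adjusted p = 0.0028, ratio 5.35, 3.04 to 9.41) and passed without any 1 library. Per length, Ndufa4l2 made up 6.62 to 8.39% of the pair in Het and 1.36 to 4.54% in WT, and 10.2 to 12.6% in Het-NTD and 1.53 to 2.77% in WT-NTD. Ndufa4 stayed the main transcript of the pair in every library.

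Its exons overlap those of Shmt2, on the other strand, over 2.9% of their length. Shmt2, a mitochondrial enzyme of one-carbon metabolism, was also higher in Het (log2 fold change 0.33 ± 0.07 SE, edgeR adjusted p = 0.00736), and reads of the shared bases cannot be told apart. Genes known to respond to low oxygen were measured beside it, in a list chosen with results of these libraries known. Of 27 genes of glycolysis and hypoxia, 19 passed higher and none lower in Het against WT (median 0.28), against 7.89% of all genes higher and 8.61% lower. In Het-NTD against WT-NTD it was also 19 and none (median 0.35), against 5.24% and 6.24% of all genes. No test set the list against other genes. Bnip3, a mitophagy receptor, had 87.8, 79.1 and 83 CPM in Het and 48.2, 36.3 and 38.0 CPM in WT (log2 fold change 1.03 ± 0.11 SE, edgeR adjusted p = 0.000261). Egln3, an oxygen-sensing prolyl hydroxylase, had 21.2, 15.1 and 18.3 CPM in Het and 9.63, 7.37 and 9.07 CPM in WT (edgeR adjusted p = 0.000493), P4ha2 was at 0.69 and Hk1 at 0.33, all past the test.

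Some markers of cell types differed in the same comparison. Their counts below stand against 7.89% of all genes higher and 8.61% lower in Het against WT. In Het-NTD against WT-NTD these shares were 5.24% and 6.24%. Macrophage genes summed to 67.5, 11.3 and 25.6 CPM in Het and 179, 163 and 201 CPM in WT, and 8 of 12 passed lower, with Csf1r at -2.43 ± 0.49 (log2, SE, edgeR adjusted p = 0.0105). In the NTD libraries the sums were 16.4, 12.2 and 16.8 CPM in Het-NTD and 161, 68.1 and 88.7 CPM in WT-NTD, with 11 of 12 lower. Skeletal muscle genes summed to 66.4, 44.9 and 62.9 CPM in Het and 22.4, 15.1 and 23.4 CPM in WT, and 2 of 9 passed higher, Myh3 (3.92) and Myh8 (2.27). Of 11 genes of smooth muscle and pericytes 3 passed lower, Kcnj8 (-1.94), Myh11 (-0.78) and Abcc9 (-1.25). The sums of that list overlapped, with 6868 to 7828 CPM in Het and 7137 to 8350 CPM in WT. Sums of 3 further lists were higher in Het without overlap. Fibroblast genes had 53292 to 58054 CPM in Het and 42333 to 52088 CPM in WT. Neural and glial genes had 180 to 219 and 130 to 173 CPM, and ciliated and club genes 14.5 to 17.3 and 8.17 to 13.2 CPM. The part of these cells in the differences of Ndufv3, Sdhd, Ndufa4 and Ndufa4l2 was not tested. In bulk RNA, fewer cells of a type and less RNA per cell cannot be told apart.

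**Figure D2:**
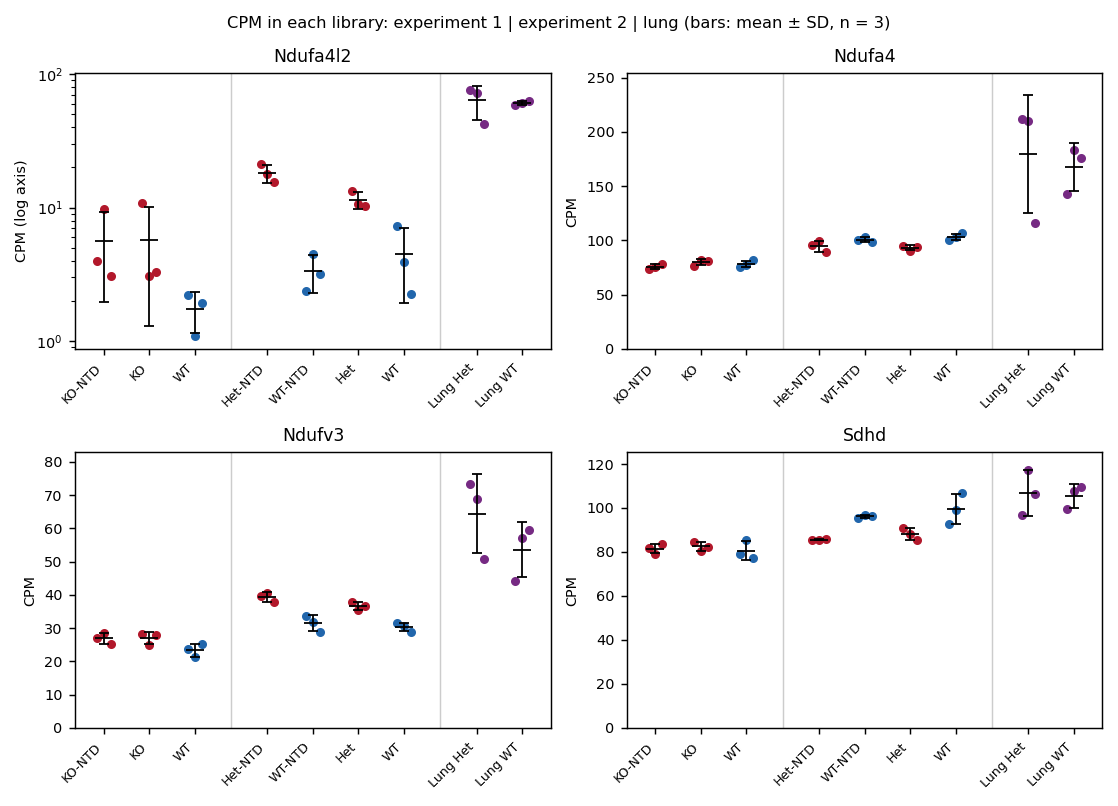
CPM of Ndufa4l2 (log axis), Ndufa4, Ndufv3 and Sdhd in each of 27 libraries, with bars for mean ± SD (n = 3); each panel runs through experiment 1, experiment 2 and lung, which were scaled apart. Ndufa4l2 lies between 10.2 and 21.1 CPM in all 6 Het-NTD and Het libraries and between 2.25 and 7.29 CPM in all 6 WT-NTD and WT libraries of experiment 2.

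The remaining members of the chain stayed close to WT in Het. Complex V again had 15 of 15 intervals within 1.25-fold, between -0.10 for Atp5j and 0.08 for Atp5l. Core subunits of complex I ran between -0.11 for Ndufv2 and 0.09 for Ndufv1, complex III between -0.11 for Uqcrc2 and 0.22 for Uqcrq, general subunits of complex IV between -0.25 for Cox7a2 and 0.08 for Cox6a1, and assembly factors between -0.23 for Ndufaf6 and 0.18 for Ndufaf1. The next members by p-value just missed the threshold. Cox7a2l had 121, 124 and 120 CPM in Het and 114, 106 and 97.1 CPM in WT, without overlap (log2 fold change 0.21, edgeR adjusted p = 0.0562). Uqcrq, a small subunit of complex III, had 78.2, 90.4 and 92.6 CPM in Het and 78.9, 75.1 and 69.8 CPM in WT, which overlap (0.22, edgeR adjusted p = 0.0587). DESeq2 called both. Among tissue isoforms Cox6a2 reached -0.71 at under 1 CPM.

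Het-NTD against WT-NTD called 3 of 88 members (3.41%), Ndufa4l2, Ndufv3 and Sdhd, against 11.5% of all genes, with 2 members higher and 1 lower where 5.24% of all genes were higher and 6.24% lower. DESeq2 called 2 higher and 2 lower (14.7% of all genes), adding Atp5g1, a gene of the c subunit, at 106, 100 and 98.7 CPM in Het-NTD and 108, 113 and 110 CPM in WT-NTD (edgeR adjusted p = 0.068). Groups did not overlap for 15 members, against 32.1% of all genes. Het-NTD against WT-NTD and Het against WT share no library, although they share 1 fit and its estimate of the spread.

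**Figure D3:**
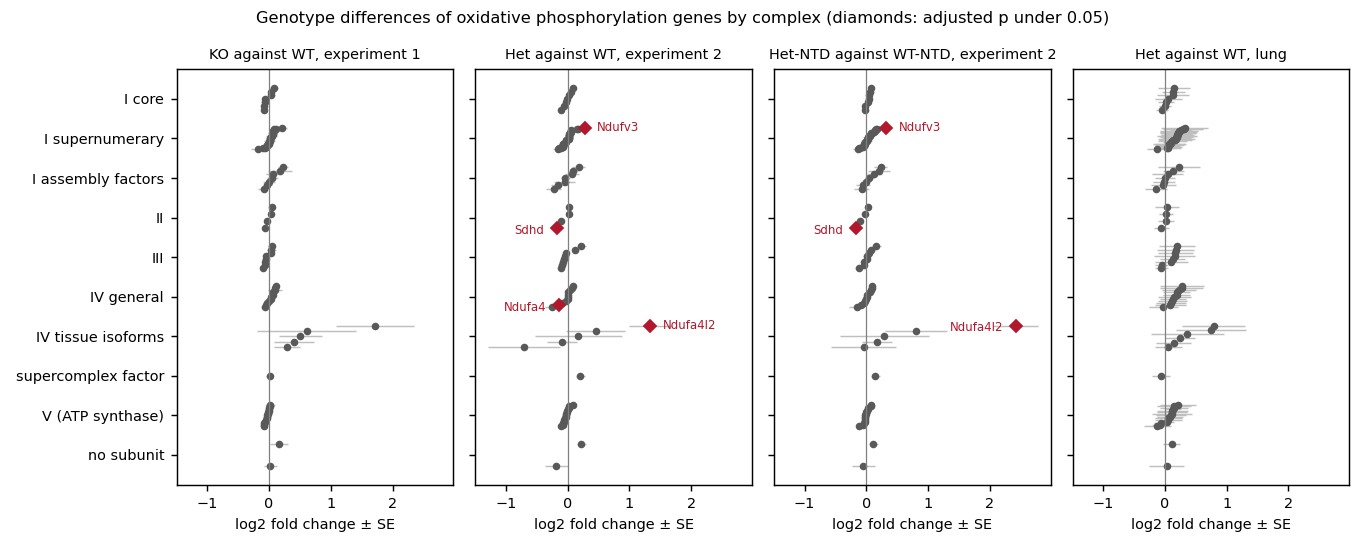
Log2 fold change ± SE of each tested gene by role in KO against WT, Het against WT of experiment 2, Het-NTD against WT-NTD and Het against WT in lung; red diamonds passed edgeR at an adjusted p under 0.05. The first and the last panel hold no diamond, and the lung panel has the wider error bars, with 75 of 89 genes above 0.

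Within 1 genotype of experiment 2, NTD against non-NTD libraries called no member in edgeR or DESeq2. Het-NTD against Het gave none, against 0.014% of all genes past edgeR and 0.167% past DESeq2. At an unadjusted p under 0.05 there were 4 members. Ndufa4l2 had a log2 fold change of 0.67 ± 0.33 (SE, edgeR adjusted p = 0.818). WT-NTD against WT gave none in either tool, against 0.014% of all genes past edgeR and 0.15% past DESeq2. At an unadjusted p under 0.05 there were 2 members, Ndufs6 at -0.18 and Ndufa12 at -0.14. Ndufa4l2 was at -0.41. The difference of the NTD effect between Het and WT gave none in either tool, against 0% of all genes past edgeR and 0.028% past DESeq2. At an unadjusted p under 0.05 there were 3 members. For Ndufa4l2 that difference was 1.08 ± 0.50 (SE, edgeR adjusted p = 0.892), so the wider gap in NTD libraries was not shown to differ from the gap without NTD.

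Among 38 tested genes of the pathway outside the naming rule, such as assembly factors, 1 was higher and 2 were lower in Het against WT, and none higher and 2 lower in Het-NTD against WT-NTD, where 16.5% and 11.5% of all genes were called. Lyrm7, which helps insert the iron-sulfur protein of complex III, had 1.73, 0.825 and 1.53 CPM in Het and 2.81, 2.90 and 2.47 CPM in WT, without overlap (log2 fold change -1.0, edgeR adjusted p = 0.0228). Uqcc1, an assembly factor of complex III, had 20.6, 23.0 and 21.0 CPM in Het and 26.6, 25.6 and 26.2 CPM in WT (-0.28, edgeR adjusted p = 0.0151). Cox17, a copper chaperone of complex IV, was higher, with 21.6, 20.9 and 21.9 CPM in Het and 18.9, 14.4 and 17.2 CPM in WT (0.35, edgeR adjusted p = 0.0285). Of 18 genes of the citric acid cycle 1 was higher and 1 lower in Het, of 24 mitochondrial ribosomal proteins 1 was higher, and of 23 genes of protein import none passed edgeR (3 at an unadjusted p under 0.05, 1 in DESeq2). Among 16 regulators of mitochondrial biogenesis 3 were higher and 1 lower. The counts past edgeR in Het stand against 7.89% of all genes higher and 8.61% lower. Gabpa, an ETS factor that binds promoters of this pathway, was lower (-0.15, edgeR adjusted p = 0.0355), and Ppard (0.40), Polg (0.21) and Myc (0.19) were higher. In KO against WT none of these lists had a gene past edgeR. At an unadjusted p under 0.05 there were 4 of 38 pathway genes, 1 of 17 regulators, 1 of 24 ribosomal proteins and none of the others, and DESeq2 called 1 pathway gene lower.

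In lung, Het against WT gave no difference past a test but wide intervals. None of 89 members passed edgeR or DESeq2, none had an unadjusted p under 0.05, and no gene of 15933 passed edgeR (0%), while 0.00628% passed DESeq2. No member's groups were free of overlap, against 4.24% of all genes. The median log2 fold change was 0.12, against 0.01 over all genes, with 75 of 89 above 0, and only 8 of 89 intervals lay within 1.25-fold. Log2 fold changes ran between -0.15 for Ndufaf5 and 0.79 ± 0.51 (SE) for Cox7a1, the muscle form of subunit 7A (edgeR adjusted p = 1). The 4 members called in fibroblasts had intervals that include no change. The ratio was 1.2 (95% interval 0.895 to 1.61) for Ndufv3, 1.01 (0.843 to 1.22) for Sdhd, 1.07 (0.724 to 1.58) for Ndufa4 and 1.04 (0.732 to 1.47) for Ndufa4l2.

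Single libraries set the lung values. Ndufa5, a supernumerary subunit of complex I, had 77.6, 61.5 and 25.3 CPM in lung Het 1, 2 and 3 and 33.8, 49.5 and 48.3 CPM in WT 1, 2 and 3. Cox7c, of complex IV, had 178, 143 and 62.3 CPM in Het and 81.8, 117 and 117 CPM in WT. In both genes Het 3 was the lowest of all 6 libraries and Het 1 the highest. Over the 89 members, 64 were highest in Het 1 and 73 lowest in Het 3, and the median over members was -0.04 without Het 1, 0.34 without Het 3 and 0.03 without WT 1. In all, 81 of the 89 members were higher in Het 1 than in Het 3, against 51.4% of all genes. Atp5b went the other way, with 437, 538 and 774 CPM in Het and 677, 625 and 602 CPM in WT.

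This order went with transcript length over all genes. Among 870 genes with transcripts of up to 1000 bases the median log2 deviation from the mean of the 6 libraries was 0.36 in Het 1, 0.22 in Het 2 and -0.48 in Het 3, and -0.24, 0.08 and 0.07 in WT 1, 2 and 3. The 49 members of that length gave 0.47, 0.28 and -0.59 in Het 1, 2 and 3 and -0.27, 0.08 and 0.06 in WT 1, 2 and 3. Of the 49 members of up to 1000 bases 49 were higher in Het 1 than in Het 3, against 90.7% of all genes of that length. Of the 40 longer members 32 were. Among all genes the share was 79.5% over 1000 and up to 2000 bases, where 29 of those 40 fall, 52.0% over 2000 and up to 4000 bases with 9 of them, and 23.0% over 4000 bases with 2. Those 2 members, Atp5g1 and Ndufb2, had medians of 0.26 in Het 1 and -0.41 in Het 3, against -0.14 and 0.22 for all genes of that length. Their lengths of 4715 and 4371 bases were assigned from the annotation. The transcript present was not measured, so no departure from the length pattern is drawn from these 2. Within the short class members had a median log2 fold change of 0.17 with 48 of 49 above 0, against 0.09 with 73.4% above 0 over all genes. The part of library quality in the lung values was not tested.

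**Figure D4:**
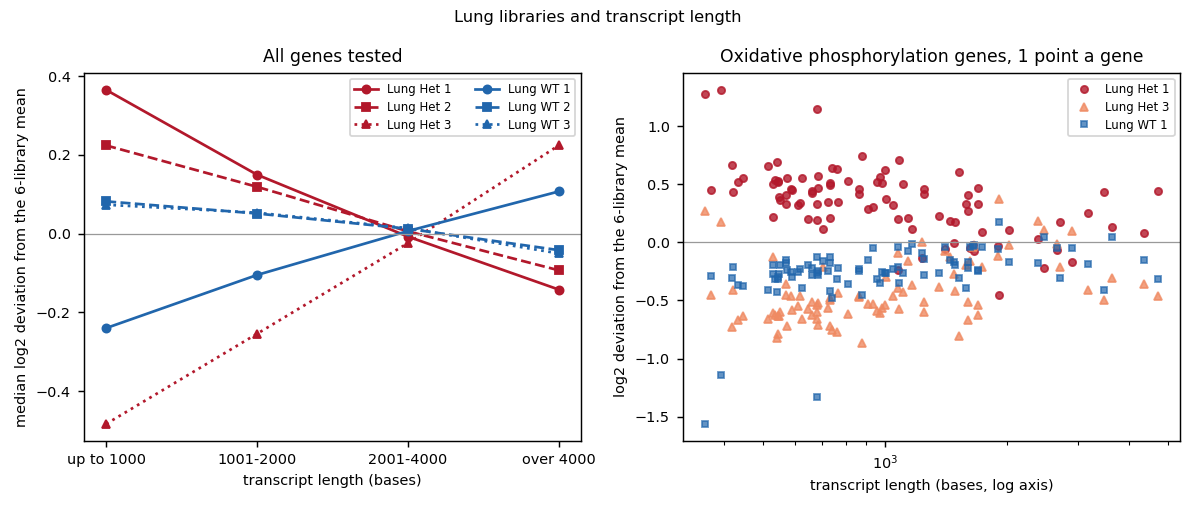
Left, median log2 deviation of each lung library from the 6-library mean over all genes tested, by class of transcript length in bases. Right, the same deviation for each oxidative phosphorylation gene against its transcript length (log axis) in Het 1, Het 3 and WT 1. Short transcripts are high in Het 1 (0.36) and low in Het 3 (-0.48) and WT 1 (-0.24), and over all genes the order turns round over 4000 bases.

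The muscle isoforms varied widely between lung libraries. Cox7a1 had 12.7, 3.74 and 5.72 CPM in Het and 2.27, 5.92 and 4.59 CPM in WT. Cox8b had 13.5, 4.2 and 6.66 CPM in Het and 1.83, 6.68 and 6.03 CPM in WT, and Cox6a2 had 20.4, 9.76 and 5.80 CPM in Het and 3.62, 14.8 and 9.60 CPM in WT. Het 1 was the highest and WT 1 the lowest library for all 3 genes. Markers of skeletal muscle summed to 784, 332 and 322 CPM in Het and 10.7, 983 and 740 CPM in WT, and markers of cardiac muscle to 496, 397 and 479 CPM in Het and 370, 787 and 387 CPM in WT. WT 1 was also lowest for both marker sums, but Het 1 was highest for neither, and WT 2 was highest for both. Adipocyte markers summed to 56.5, 21.7 and 139 CPM in Het and 19.7, 49.4 and 30.7 CPM in WT, highest in Het 3 and lowest in WT 1. The part of muscle and fat cells in the isoform values was not tested.

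The Het effect in lung minus that in fibroblasts passed for none of 89 members in edgeR or DESeq2, against 1.12% of all genes in edgeR and 4.49% in DESeq2. At an unadjusted p under 0.05 there was 1, Ndufa4l2, at -1.28 ± 0.47 (log2, SE, edgeR adjusted p = 0.275). It passed without WT 1 of the fibroblasts (-1.82, edgeR adjusted p = 0.0398). No fibroblast call was thus shown to differ from lung.

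WT lung against WT fibroblasts of experiment 2 gave the widest differences of the pathway, although tissue and experiment cannot be told apart here. All values of this comparison are CPM scaled together in 1 fit. Of 89 members 23 were higher in lung and 21 lower (49.4%), against 41.5% of all genes higher and 34.1% lower (75.6% together, and 77% in DESeq2). The median log2 fold change was 0.21 for members and 0.14 for all genes. The 6 tested tissue isoforms of complex IV were all higher in lung, while complex V had 1 higher and 6 lower of 15 and complex II none higher and 3 lower of 4.

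Cox4i2, the lung isoform of subunit 4, lies on chromosome 2 from 152754173 to 152765037 (plus strand). It had 75.6, 78.6 and 88.8 CPM in lung and 0.448, 1.18 and 0.836 CPM in fibroblasts, 6.61 ± 0.39 higher in log2 terms (SE, edgeR adjusted p = 3.47e-08). The ratio was 97.8 (95% interval 53.8 to 178). Its general partner Cox4i1 had 225, 263 and 263 CPM in lung and 236, 222 and 243 CPM in fibroblasts, which overlap (0.10, edgeR adjusted p = 0.598). Per length, Cox4i2 was 21.1 to 26.5% of the pair in lung Het, 23.8 to 26.1% in lung WT, and at most 1.08% in any fibroblast library.

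Ndufa4l2 had 52.4, 53.8 and 56.3 CPM in lung and 8.27, 4.42 and 2.54 CPM in fibroblasts (log2 fold change 3.41 ± 0.36 SE, edgeR adjusted p = 4.21e-06). Even the highest Het-NTD library lay below lung on the scale of its own fit. Its share of the pair with Ndufa4 was 18.3 to 19.2% in lung Het and 17.7 to 21.3% in lung WT. Unlike its CPM, this share did not spread in lung Het, since Ndufa4 fell together with it in Het 3 (116 CPM, and 42.4 CPM for Ndufa4l2). Cox6b2, known from testis, had 10.2, 12.5 and 11.7 CPM in lung and 1.88, 3.72 and 2.57 CPM in fibroblasts (2.07, edgeR adjusted p = 3.4e-05).

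Of the muscle forms, Cox6a2 had 3.21, 13.1 and 8.54 CPM in lung and 0.865, 0.982 and 0.322 CPM in fibroblasts (3.5, edgeR adjusted p = 0.000336), and Cox7a1 had 2.01, 5.25 and 4.09 CPM in lung and 0.567, 0.173 and 0.643 CPM in fibroblasts (3.03, edgeR adjusted p = 0.000783). Both rose without overlap. Cox8b, on chromosome 7 from 140898945 to 140900446 (minus strand), had 1.62, 5.92 and 5.37 CPM in lung and no count in the 3 WT fibroblast libraries. It was at least 47.3-fold higher in lung, taking 3 counts per library as the floor. The general partners did not pass, with Cox6a1 at 0.07, Cox7a2 at 0.09, Cox8a at 0.27, Cox6b1 at -0.08 and Ndufa4 at 0.35. All 11 skeletal muscle markers tested and 9 of 10 cardiac ones were higher in lung, against 41.5% of all genes. The skeletal sum was nevertheless 10.7 CPM in lung WT 1, below 22.4, 15.1 and 23.4 CPM in the WT fibroblasts, and 983 and 740 CPM in the other lung WT libraries, each on the scale of its own fit. The part of muscle in these values was not tested.

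The 6 ATP synthase genes lower in lung included those of its alpha and beta subunits. Atp5b (chromosome 10 from 128083273 to 128090391, plus strand) had 600, 554 and 536 CPM in lung and 1410, 1362 and 1531 CPM in fibroblasts, 0.393 times as much (edgeR adjusted p = 1.81e-05, 95% interval 0.304 to 0.507). Atp5a1, the alpha subunit, had 480, 485 and 479 CPM in lung and 789, 809 and 842 CPM in fibroblasts (log2 fold change -0.76), and the delta subunit Atp5d had 118, 123 and 120 CPM in lung and 183, 182 and 193 CPM in fibroblasts (-0.63, edgeR adjusted p = 2.66e-05). Atp5g1 had 54.8, 77.5 and 68.7 CPM in lung and 126, 127 and 129 CPM in fibroblasts (-0.92). The groups of these genes lay far apart. The other c subunit genes did not pass, Atp5g2 at -0.35 (edgeR adjusted p = 0.0768) and Atp5g3 at -0.13. Atp5e, the small epsilon subunit, was higher, with 108, 138 and 131 CPM in lung and 62.3, 68.1 and 62.5 CPM in fibroblasts (0.96).

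Complexes I and III had genes in both directions, and complex II only lower ones (3 of 4, without Sdhc). Ndufs1, the largest core subunit of complex I, fell by 0.65 and the supernumerary Ndufa10 by 0.82 on the log2 scale in lung, while Ndufb3 rose by 1.11. The assembly factor Ndufaf3 rose most among genes that are not tissue isoforms, with 16.4, 21.6 and 19.5 CPM in lung and 6.12, 6.21 and 5.02 CPM in fibroblasts (1.73 ± 0.19 SE, edgeR adjusted p = 5.13e-06). In complex II, Sdha had 157, 172 and 170 CPM in lung and 240, 248 and 259 CPM in fibroblasts (-0.58). In complex III the core protein Uqcrc1 had 136, 147 and 142 CPM in lung and 237, 217 and 242 CPM in fibroblasts (-0.71, edgeR adjusted p = 2.9e-06), while the hinge protein Uqcrh rose by 0.86.

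Here too the length of the transcript went with the direction. Of members of up to 1000 bases 16 were higher and 3 lower of 49 (all genes of that length 50.6% higher and 19.0% lower). Over 1000 and up to 2000 bases 6 were higher and 11 lower of 29 (46.8% and 28.3% of all genes), and over 2000 and up to 4000 bases 1 was higher and 6 lower of 9 (41.9% and 35.6%). The median log2 fold change was 0.35 for members of up to 1000 bases, Cox4i2, Ndufa4l2, Cox6a2 and Cox7a1 among them, and 0.63 for all genes of that length. The part of length-dependent recovery in the differences between tissues was not tested.

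**Figure D5:**
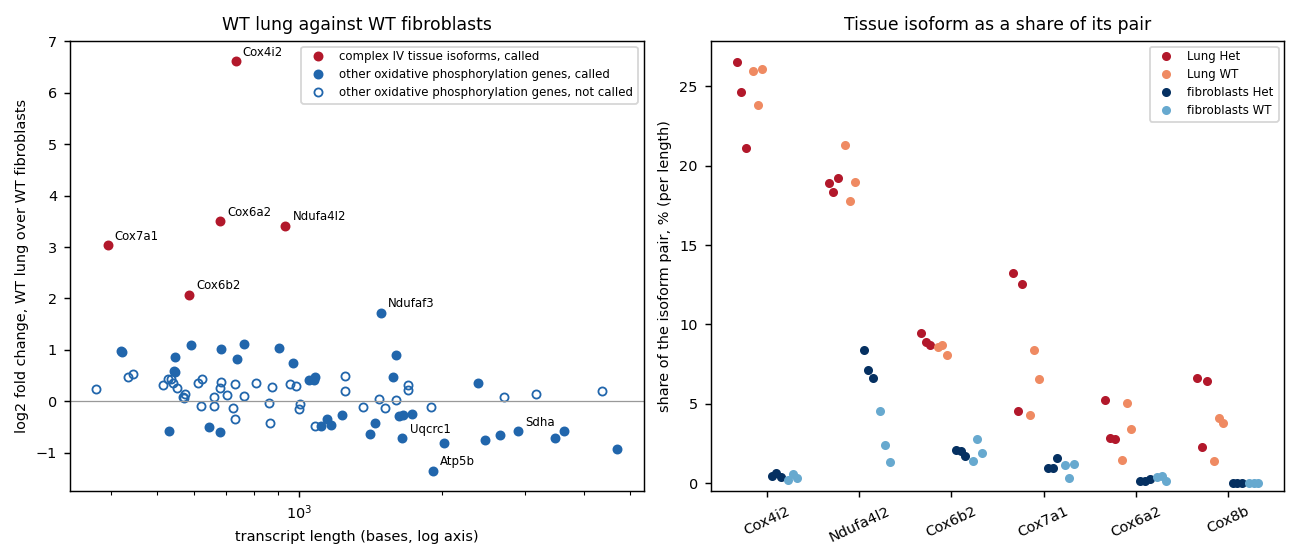
Left, log2 fold change of WT lung over WT fibroblasts against transcript length (log axis), 1 point a gene, filled where edgeR's adjusted p was under 0.05; Cox8b, with no count in WT fibroblasts, is not drawn. Right, share of the less general isoform in its pair by level per length, 1 point a library, in lung Het, lung WT and experiment 2 fibroblasts Het and WT. Cox4i2 makes up 21.1 to 26.5% of its pair in lung and at most 0.634% in these fibroblasts, and Ndufa4l2 in fibroblasts lies at 6.62 to 8.39% in Het and 1.36 to 4.54% in WT.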

How the data were processed

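Libraries were made with an unstranded TruSeq kit from about 200 ng of RNA, per the labels' protocols. The values are counts of reads by gene symbol, not normalized, in a table the authors deposited. The submitters' processing notes name the build mm10 and, as tools, featureCounts 1.4.6, Subread, Bowtie2 2.2.6 and TopHat2 2.0.14. The counting annotation is not given in the sources used here.

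Experiment 1, experiment 2 and lung had a fit each in edgeR 4.0.16 (R 4.3.3): filterByExpr by group, TMM, robust quasi-likelihood F test, two-sided, Benjamini-Hochberg over all genes tested, threshold 0.05. The fits held 9 libraries and 14551 genes, 12 and 14314, and 6 and 15933. A joint fit of 12 libraries and 16364 genes served the comparisons between tissues. The scripts were tested on simulated data. DESeq2 1.42.0, its size factors, no filter, only the groups compared, a replicate block and leaving out each library were alternatives. No replicate pair was alike within sampling noise (chi-square per degree of freedom at least 5.65). With 3 libraries against 3, an exact permutation test cannot go below p = 0.1 and was not used.

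Lengths and coordinates are from GENCODE M21 (GRCm38), matched for 92 members, 1 of them by synonym. CPM per kb uses the principal transcript. Genes were named by rule: members past the threshold (up to 10), isoform pairs, the highest and lowest of each complex, up to 4 genes by p-value of each other list, and Foxm1. Where a count was 5 or fewer its genes are also named. Libraries of small depth carry more counting error. Members and lists were chosen with earlier results of these data known. The level of 1 member is not reported here.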

Additional observations from a re-analysis of the deposited data

How the results depend on the processing

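Of the values of single members recomputed under alternatives, 541 kept direction and side of the threshold, 65 lost the threshold, 1 gained it and 7 turned round, all 7 of them for Ndufa4l2 where it was not called. Of the counts of called members, 232 stayed within 1.5 times and 26 moved.

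For Het against WT, the 2 members called higher became 4 with DESeq2, 1 without a filter on low counts and 1 with only the libraries of both groups in the fit, and 1 to 4 with 1 library left out. The 2 called lower became 1 without a filter, 1 with the replicate block and 0 with only both groups, and 0 to 5 with 1 library left out; the 4 and 5 are without WT 1, which added Cox7a2l and Uqcrq higher and Ndufaf5, Ndufv2 and Sdha lower. For Het-NTD against WT-NTD, the lower count was 2 with DESeq2 and 0 without any 1 library, and the higher count 2 to 3. KO-NTD against WT had 1 higher with DESeq2. The lung minus fibroblast effect had 0 to 1 higher (Ndufc2 without lung Het 3) and 0 to 1 lower (Ndufa4l2 without fibroblast WT 1). WT lung against WT fibroblasts had 18 to 28 higher and 15 to 19 lower. Without a filter the edgeR adjusted p was 0.0542 for Ndufa4l2 and 0.0509 for Ndufa4, and with only both groups 0.0871 and 0.0717, and 0.0947 for Sdhd. The causes were not tested.

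Ndufa4l2 turned round in KO-NTD against KO (0.12 with the replicate block, -0.70 to 0.82 with 1 library left out), in WT-NTD against WT (-0.73 to 0.12) and in lung (-0.092 to 0.28). Same-numbered libraries did not pair throughout (correlation over 0.1 in 5 of 9, 6 of 18 and 1 of 3 pairs). WT and WT-NTD of experiment 2 gave 0.24, 0.45 and 0.07, against at most 0.26 for other numbers in that experiment. In experiment 1 same numbers gave -0.48 to 0.61, and other numbers up to 0.63. Pairing within some groups was neither shown nor excluded, and the replicate block served as an alternative only. Its other counts stayed within 1.5 times. Lung intervals limit what could be seen there.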

Other observations

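Ndufa4l2 in experiment 1 was highest in KO 1 (10.8 CPM) and KO-NTD 2 (9.76 CPM), and at most 3.96 CPM in the other 7 libraries. The same 2 libraries were the highest of the experiment for Bnip3 (106 and 92.0 CPM, others at most 63.4 CPM) and for skeletal muscle markers (sums of 74.8 and 69.7 CPM, others at most 26.0 CPM), and the lowest for macrophage markers (12.4 and 9.70 CPM, others at least 33.0 CPM). These libraries were singled out after their values were seen, and no test was made.

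Other mitochondrial genes were counted in WT lung against WT fibroblasts, where 41.5% of all genes were higher and 34.1% lower. No difference between lists was tested. Of 23 genes of protein import and folding none was higher and 17 were lower (median log2 fold change -0.82), of 24 mitochondrial ribosomal proteins 2 were higher and 14 lower (-0.55), and of 18 genes of the citric acid cycle 1 was higher and 12 lower (-0.41). Glycolysis and hypoxia genes had 4 higher and 19 lower of 27 (-1.87). Ppargc1a, a coactivator of mitochondrial biogenesis, was higher in lung (4.05 ± 0.59 SE, edgeR adjusted p = 6.52e-05), while 10 of 17 regulators were lower.

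Ucp1, the uncoupling protein of brown fat, had 0.932, 0.07 and 25.8 CPM in lung Het and 0.293, 0.906 and 0.6 CPM in lung WT. Adipoq, a fat cell gene, had 3.80, 0.840 and 12.6 CPM in Het and 0.806, 3.84 and 1.95 CPM in WT. The same library, Het 3, was highest for both, and all 7 adipocyte markers were above 0 in Het against WT with none past edgeR, none past DESeq2 and none at an unadjusted p under 0.05 (median log2 fold change 1.35).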
